A study of Mus musculus with 16 samples.

Results

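The genes described here make cholesterol and fatty acids or control that synthesis. They are 31 genes taken by name, as targets and regulators of the sterol regulatory element binding proteins (SREBPs), from the 24062 gene rows of a read count table of mouse spermatozoa. The rule that picks them is a list of names and uses no measured value. All 31 were in the table and all 31 passed the filter on low counts, which 13149 genes passed. By role they are 6 enzymes of the mevalonate pathway, 10 enzymes from squalene to cholesterol, 4 regulators, 5 genes of fatty acid synthesis, 5 of desaturation and elongation, and the sterol carrier Stard4.

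RNA was sequenced from motile sperm of 16 male mice. Of these, 8 had received a high-fat, high-calorie diet (HFD) and 8 its control diet (CD), in both groups from 3 weeks of age and for 9 weeks before sperm were isolated. The labels give no genotype, strain or treatment other than the diet. Each library is described as a separate mouse, so the spread between libraries is that between animals together with that of isolation, amplification and sequencing.

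Cholesterol is built from acetyl-CoA through mevalonate and squalene, and fatty acids from the same acetyl-CoA through malonyl-CoA. When sterols in the endoplasmic reticulum membrane are low, Scap carries an SREBP to the Golgi, where it is cleaved, and the released part enters the nucleus and activates genes of both routes. Srebf2 codes for the form that mainly serves sterol genes and Srebf1 for the form that mainly serves fatty acid genes. Mature sperm transcribe little, and their membranes change in sterol and polyunsaturated fatty acid content as they pass through the epididymis.

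SREBPs bind a sterol regulatory element, and near it NF-Y binds CCAAT boxes and Sp1 binds GC boxes. Of the 31 genes, 24 matched a RefSeq promoter on GRCm38.p6, which runs from 250 bases before to 50 bases after a start site. Each was searched on both strands, over all annotated starts of a gene, for 5 motifs. These were a sterol regulatory element with the letters TCACNCCAC, an E-box that SREBPs also bind with the letters TCACGTGA, the CCAAT box, the GC box with the letters GGGCGG, and the core of a cAMP response element with the letters TGACGT. The sterol element was present in 1 of the 24 genes, Hmgcs1 (4.17%), against 1.44% of 27025 genes with a promoter. The E-box was in 0 of the 24 and in 1.12% of all genes. A CCAAT box was in 20 of the 24 (83.3%) against 41.1% of all genes, and a GC box in 19 (79.2%) against 38.2%. The cAMP response core was in 2 of the 24 (8.33%) and in 8.37% of all genes. A match is a string of letters and not a measured binding site, and no match says only that these letters are not in this window.

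Windows upstream of 4 of these genes are printed, each the longest exon-free stretch of at most 150 bases before the first RefSeq start. Hmgcs1 is shown as the gene with the sterol element, and Nsdhl and Hsd17b7 as genes related to the marker sums described further on. Me1 is shown as a gene that stood high in the 2 libraries that lie apart. Capitals mark matches to the 5 motifs on either strand, and each sequence reads 5′ to 3′ along the gene's own strand. The Hmgcs1 window is chr13:119690201-119690350 on the plus strand, with TCACCCCAC as its sterol element, 2 GC boxes, 1 CCAAT box and 1 cAMP response core. The Nsdhl window is chrX:72918412-72918520 on the plus strand, with 2 CCAAT boxes and 1 GC box. The Hsd17b7 window is chr1:169969242-169969391 on the minus strand, with 2 CCAAT boxes and 2 GC boxes. The Me1 window is chr9:86695954-86696103 on the minus strand, with 2 GC boxes and no other match.
Hmgcs1: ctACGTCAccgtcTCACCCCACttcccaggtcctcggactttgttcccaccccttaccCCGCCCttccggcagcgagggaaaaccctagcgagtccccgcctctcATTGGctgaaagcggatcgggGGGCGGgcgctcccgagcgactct
Nsdhl: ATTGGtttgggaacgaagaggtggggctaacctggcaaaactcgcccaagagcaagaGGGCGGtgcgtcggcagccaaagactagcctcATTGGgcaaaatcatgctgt
Hsd17b7: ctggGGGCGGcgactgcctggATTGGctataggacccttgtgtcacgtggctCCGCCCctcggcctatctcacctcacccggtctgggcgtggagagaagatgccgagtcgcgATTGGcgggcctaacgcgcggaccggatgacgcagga
Me1: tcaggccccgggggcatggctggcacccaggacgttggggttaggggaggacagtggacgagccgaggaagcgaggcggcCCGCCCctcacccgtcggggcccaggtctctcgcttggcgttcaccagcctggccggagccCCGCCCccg

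Counts assigned to genes ran from 1882555 to 5153818 in HFD and from 3172721 to 7783981 in CD. Expression is given as CPM, a gene's count scaled to the library's size. HFD 4 and HFD 8 lay apart from the other 14 libraries. Sums of marker genes, in CPM of each library's gene counts, show how. The late spermatid sum (26 genes such as protamines) was 24914 in HFD 4 and 56820 in HFD 8 against 2447 to 13550 in the other 14. The epididymal epithelium sum (24 genes) was 13200 and 10662 against 31986 to 82845. Leukocyte markers (12 genes found) summed to 889 and 1302 against 218 to 1031, and markers of stroma, endothelium and muscle (12 genes) to 1313 and 1140 against 335 to 955. Adipocyte markers (8 genes) summed to 14.2 to 45.9, Leydig cell markers (7) to 26.03 to 132 and Sertoli cell markers (8, with Amh at 0 throughout) to 14.9 to 67.1 over all 16 libraries. Late spermatid and epididymal markers were thus present in every library, and in the 14 others the epididymal sum was the larger of the pair. In bulk RNA, fewer cells of a type and less RNA per cell cannot be told apart. The fold changes below are therefore given with and without HFD 4 and HFD 8. The part that the cells behind these sums have in them was not tested.

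The question between the groups is whether the sperm RNA of these genes differed with the male's diet. None of the 31 genes passed an adjusted p of 0.05 with edgeR's quasi-likelihood test, and none of the 13149 tested genes did (0%). Adjusted p of the 31 ran from 0.434 to 0.984. DESeq2 called 1 of the 13149 genes, Apoh, which is not among the 31, and limma-voom with quality weights called 0. At an unadjusted edgeR p under 0.05, 3 of the 31 stood higher in HFD (Idi1, Fdft1 and Me1) where 10.2% of all genes did, and 0 stood lower where 1.10% did. The 3 of 31 are 9.68%, near that background. Without HFD 4 and HFD 8, 0 of the 31 passed in either direction, where 0.982% of 13448 genes stood higher and 1.19% lower (edgeR, unadjusted p under 0.05). With limma-voom weights 1 of the 31 stood higher, Idi1, and 0 lower, where 1.73% of all genes stood higher and 1.98% lower. No gene of the 31 had diets that did not overlap, against 0.00761% of all genes (1 gene, Rnf26, which is not among the 31). Log2 fold changes are HFD over CD from the same fit. They were below 0 for 25 of the 31 and above 0 for 6, with a median of -0.17, where the median of all genes was -0.0042. Without HFD 4 and HFD 8, in a fit of 13448 genes, 13 were below 0 and 18 above, with a median of 0.0097 beside -0.0046 for all genes, and every adjusted p of the 31 was 0.9997 (edgeR).

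**Figure D1:**
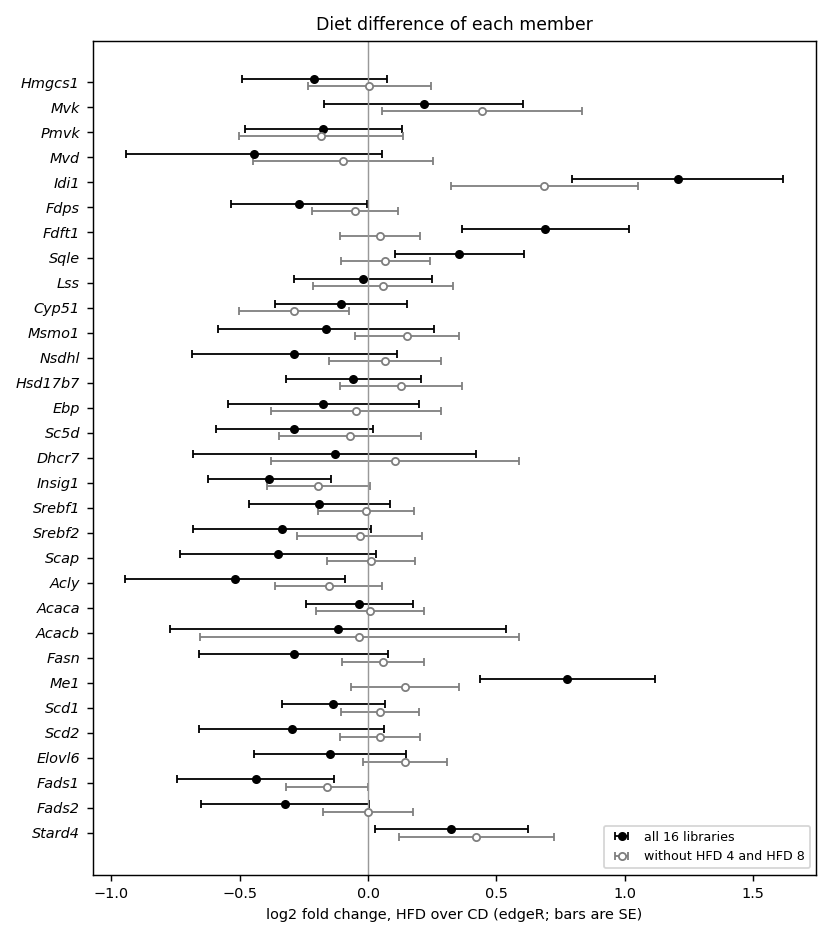
Log2 fold change of HFD over CD for each of the 31 genes (edgeR, bars are SE), with filled points for all 16 libraries and open points without HFD 4 and HFD 8. With all libraries 25 points lie left of 0, and without the 2 libraries 18 lie right of 0, with Idi1, Fdft1 and Me1 moving most toward 0.

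Levels of different genes were compared per kilobase of exon, as CPM per kb over the 16 libraries. The length is that of all annotated exons of a gene merged over its transcripts, such as 10787 bases for Lss and 17074 for Acaca. It can exceed the length of the transcripts present, and the order of the genes depends on it. Scd2, a stearoyl-CoA desaturase, was the highest at 125 ± 46.7 (SD, n = 16) CPM per kb. Acly, which releases acetyl-CoA from citrate for both routes, followed at 111 ± 51.96. The next were Fads1 at 66.00 ± 22.9, Fdft1 at 64.6 ± 44.2, Nsdhl at 57.1 ± 25.5, Fads2 at 52.6 ± 19.8 and Scd1 at 52.3 ± 12.5. For each pair of neighbours among these 7 genes, the SD of at least 1 of them exceeds the gap between them. All genes come from the same libraries, and gaps within each library were not compared. Whether neighbours in this order differ was thus not tested. At the low end stood Dhcr7 at 0.9501 ± 0.648 and Acacb at 0.433 ± 0.321 CPM per kb. Dhcr7, a reductase late on the way to cholesterol, had 0 counts in HFD 4, and Acacb, the mitochondrial acetyl-CoA carboxylase, had 0 in HFD 4 and in CD 5. All 5 genes of desaturation and elongation were thus among the 8 highest of the 31 per kb. Among the 14 other libraries the coefficient of variation of CPM was lowest for Scd1 (18.05%) and Fdft1 (19.01%) and highest for Dhcr7 (61.9%) and Acacb (70.8%), the pair with the lowest levels per kb.

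**Figure D2:**
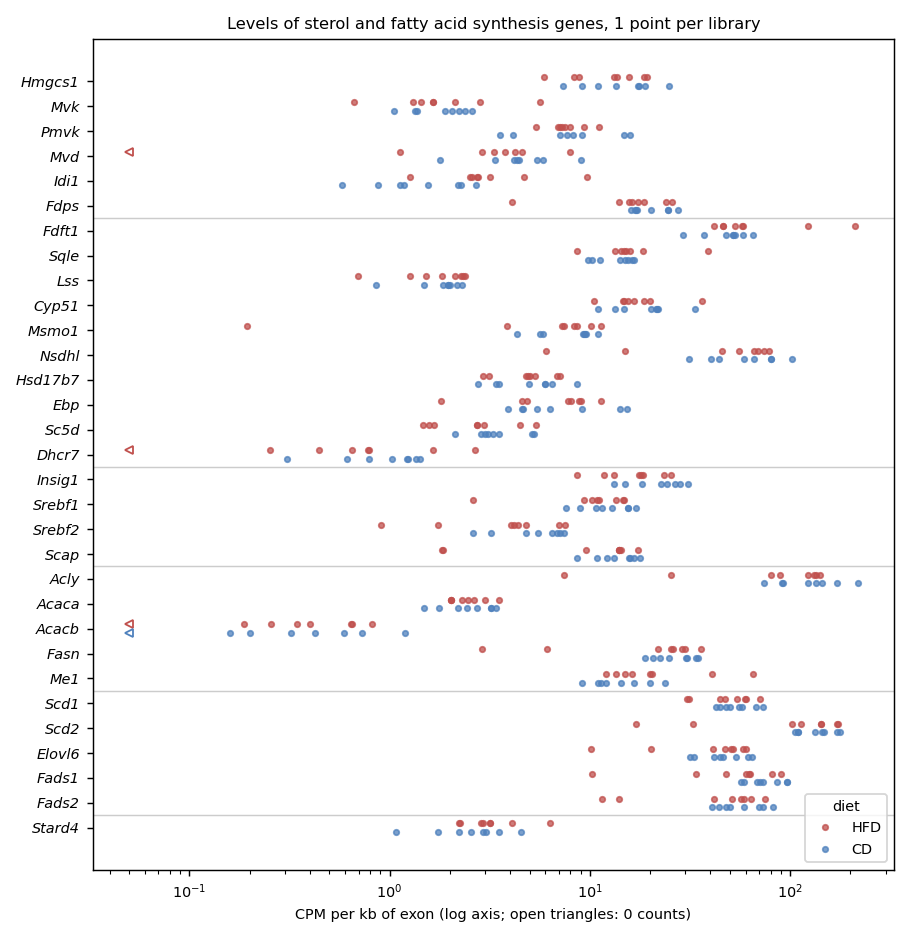
Level of each of the 31 genes in CPM per kb of exon on a log axis, with 1 point per library (red HFD, blue CD), lines between roles and open triangles at the left for 0 counts. Scd2 and Acly lie farthest to the right on average and Acacb farthest to the left, and HFD 4 and HFD 8 are the detached red points at the left of genes such as Scd2, Acly and Nsdhl.

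In the mevalonate pathway, none of the 6 genes passed the test between diets, and 2 stood higher and 4 lower on average in HFD. In what follows, 3 CPM values in a row are the lowest, the median and the highest of the 8 libraries of a diet, and fold changes are on the log2 scale with their SE. Hmgcs1, which makes the HMG-CoA that is reduced to mevalonate, stood at 27.2, 61.8 and 89.1 CPM in HFD and 33.8, 71.2 and 114 CPM in CD. Its lowest HFD library was HFD 8, its lowest CD library CD 8, and the diets overlapped. The fold change was -0.21 ± 0.28 (SE), and 0.0047 ± 0.24 without HFD 4 and HFD 8. Mvk and Pmvk phosphorylate mevalonate in turn. Mvk stood at 1.79, 4.404 and 15.2 CPM in HFD and 2.83, 5.26 and 6.93 CPM in CD, and its HFD maximum, in HFD 7, lay well above the next library. Its fold change was 0.22 ± 0.39 (SE), and 0.44 ± 0.39 without HFD 4 and HFD 8. Pmvk stood at 9.24, 12.7 and 18.98 CPM in HFD and 6.13, 13.7 and 27.1 CPM in CD, with both the lowest and the highest library in CD. Here the fold change was -0.17 ± 0.31 (SE), and -0.18 ± 0.32 without HFD 4 and HFD 8. Mvd, which decarboxylates the product to isopentenyl diphosphate, stood at 0, 6.59 and 14.8 CPM in HFD and 3.32, 8.13 and 16.8 CPM in CD, with 0 counts in HFD 4. HFD 8 was also below the 14 others, at 2.09 CPM, and the fold change was -0.44 ± 0.50 (SE), and -0.10 ± 0.35 without HFD 4 and HFD 8.

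Idi1, the isomerase that turns isopentenyl into dimethylallyl diphosphate (GRCm38 chromosome 13, 8885501 to 8892451, plus strand), had the highest fold change of the 31. It stood at 4.45, 9.64 and 33.9 CPM in HFD and 2.03, 4.805 and 9.45 CPM in CD. Its 2 highest libraries were HFD 4 at 33.9 and HFD 8 at 16.4 CPM, and the other 14 lay between 2.03 and 11.1 CPM. The means were 12.9 ± 9.11 (SD, n = 8) CPM for HFD and 5.47 ± 2.63 for CD, and the diets overlapped. The fold change was 1.21 ± 0.41 (SE) with an adjusted p of 0.434 (edgeR), and 0.69 ± 0.36 with an adjusted p of 0.9997 (edgeR) without HFD 4 and HFD 8. Reads without a unique alignment were set apart in a summary row, so any shared equally with its near copy Idi2 would be in neither count. Fdps, which joins the 5-carbon units into farnesyl diphosphate, went the other way in these libraries, at 17.3, 71.03 and 108 CPM in HFD and 67.8, 78.5 and 116 CPM in CD. HFD 4 at 17.3 and HFD 8 at 58.6 CPM were below the 14 others, which began at 65.7 CPM. For Fdps the fold change was -0.27 ± 0.27 (SE), and -0.05 ± 0.17 without them.

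The first steps after farnesyl diphosphate held genes that were high in HFD 4. Fdft1, squalene synthase, the first step given over to sterols (GRCm38 chromosome 14, 63145150 to 63179578, minus strand), stood at 176, 234 and 895 CPM in HFD and 123, 219 and 276 CPM in CD. HFD 4 at 895 and HFD 8 at 521 CPM were above the 14 others, which ended at 276 CPM. The mean was 337 ± 251 (SD, n = 8) CPM in HFD with them, 214 ± 29.2 (SD, n = 6) without them, and 209 ± 48.6 (SD, n = 8) in CD. The fold change was 0.69 ± 0.33 (SE) with an adjusted p of 0.442 (edgeR), and 0.05 ± 0.16 without the 2 libraries. Exons of Fdft1 and of Ctsb on the opposite strand share 774 bases, and the strand setting of the counting is not given in the sources used here. Ctsb itself lay lower in HFD 4 and HFD 8, at 164 and 138 CPM against 182 to 251 in the others. Fdps shares 1124 exon bases with annotated genes on its own strand, among them the protein-coding Gm43738. Scap shares 985, Hmgcs1 557, Lss 381 and Idi1 323 exon bases with genes on the opposite strand. Overlaps of Scd2 (61), Elovl6 (34) and Me1 (30) were smaller. What these overlaps add to or take from the counts was not tested. Sqle, squalene epoxidase, stood at 47.9, 83.1 and 216 CPM in HFD and 54.1, 80.5 and 92.2 CPM in CD. Its value in HFD 4, 216 CPM, was alone above the rest, and HFD 8 at 87.5 CPM lay inside them. This gave a fold change of 0.36 ± 0.25 (SE), and 0.07 ± 0.17 without HFD 4 and HFD 8.

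Lss closes the ring to lanosterol and stood at 7.53, 21.3 and 25.7 CPM in HFD and 9.27, 21.1 and 24.9 CPM in CD, with its lowest values in HFD 3 and CD 6. Its medians differed by less than the spread within either diet, with a fold change of -0.02 ± 0.27 (SE), and 0.06 ± 0.27 without HFD 4 and HFD 8. Cyp51, which removes the first methyl group of lanosterol, stood at 46.5, 70.9 and 160.1 CPM in HFD and 48.7, 91.8 and 148 CPM in CD. HFD 4 at 160.1 CPM was the highest library, CD 3 the second, and HFD 8 at 64.9 CPM lay among the rest. The diet fold change was -0.10 ± 0.26 (SE), and -0.29 ± 0.21 without HFD 4 and HFD 8. Exons of Cyp51 share 166 bases with Akap9 on the opposite strand, at 239 CPM in HFD 4 and 128 in HFD 8 against 199 to 419. Msmo1, which acts on the next methyl groups, stood at 1.19, 48.6 and 70.2 CPM in HFD and 26.6, 56.9 and 67.7 CPM in CD. It went against Cyp51 in HFD 4, where it had 2 counts, and HFD 8 at 23.7 CPM was also below the 14 others, which began at 26.6 CPM. For Msmo1 the fold change was -0.16 ± 0.42 (SE), and 0.15 ± 0.20 without HFD 4 and HFD 8.

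Nsdhl, the dehydrogenase that works with Msmo1 (GRCm38 chromosome X, 72918557 to 72958514, plus strand), stood at 17.3, 174 and 224 CPM in HFD and 89.7, 178 and 290.1 CPM in CD. HFD 4 at 17.3 and HFD 8 at 42.5 CPM were below the other 14, which began at 89.7 CPM in CD 5. The mean was 186 ± 34.7 (SD, n = 6) CPM in the other HFD libraries and 179 ± 68.1 (SD, n = 8) in CD. The fold change was -0.29 ± 0.40 (SE) over all libraries and 0.06 ± 0.22 without the 2. Hsd17b7, the ketosteroid reductase of the same complex, stood at 14.99, 25.4 and 36.1 CPM in HFD and 14.05, 27.9 and 44.2 CPM in CD, and both HFD 4 and HFD 8 were low but inside the range of the others. Ebp, which moves the ring double bond, stood at 4.18, 18.3 and 26.2 CPM in HFD and 8.99, 13.5 and 35.4 CPM in CD, with HFD 8 the lowest at 4.18 CPM and HFD 4 inside the range. Sc5d, the following desaturase, stood at 7.14, 13.3 and 26.1 CPM in HFD and 10.4, 15.5 and 25.5 CPM in CD, with HFD 4 and HFD 8 both lowest. Dhcr7 stood at 0, 4.15 and 15.5 CPM in HFD and 1.798, 6.52 and 8.25 CPM in CD, a level at which single reads weigh on each value. Fold changes with all libraries and without HFD 4 and HFD 8 were -0.06 ± 0.26 (SE) and 0.13 ± 0.24 for Hsd17b7, -0.17 ± 0.37 (SE) and -0.05 ± 0.33 for Ebp, -0.29 ± 0.31 (SE) and -0.07 ± 0.28 for Sc5d, and -0.13 ± 0.55 (SE) and 0.11 ± 0.48 for Dhcr7. Of the 10 genes from squalene to cholesterol, 2 stood higher and 8 lower on average in HFD with all libraries, and 7 higher and 3 lower without HFD 4 and HFD 8, with none past the test in either fit.

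All 4 regulators stood lower on average in HFD, none past the test, and 3 of the 4 did so without HFD 4 and HFD 8. Insig1, which holds Scap in the endoplasmic reticulum and is itself an SREBP target, stood at 26.8, 55.2 and 78.7 CPM in HFD and 40.9, 72.6 and 95.3 CPM in CD. HFD 4 at 26.8 and HFD 8 at 36.6 CPM were lowest, and the fold change was -0.38 ± 0.24 (SE), and -0.19 ± 0.20 without them. Srebf1 stood at 14.6, 61.9 and 83.8 CPM in HFD and 43.1, 68.8 and 95.3 CPM in CD, with HFD 8 alone below the rest at 14.6 CPM and HFD 4 inside them at 62.5. Its exons share 109 bases with Rai1 on the opposite strand, which was also lowest in HFD 8, at 8.72 CPM against 16.95 to 44.3 in the other 14. The fold change of Srebf1 was -0.19 ± 0.27 (SE), and -0.0095 ± 0.19 without HFD 4 and HFD 8. Srebf2 stood at 6.55, 30.8 and 53.96 CPM in HFD and 18.6, 42.9 and 53.5 CPM in CD, with HFD 4 at 6.55 and HFD 8 at 12.6 CPM lowest and a fold change of -0.34 ± 0.35 (SE), and -0.03 ± 0.24 without HFD 4 and HFD 8. Scap, the escort of both forms, stood at 13.6, 104 and 129 CPM in HFD and 64.5, 108 and 133 CPM in CD. HFD 4 and HFD 8 had almost the same value, 13.7 and 13.6 CPM, while the other 14 began at 64.5. Its fold change was -0.35 ± 0.38 (SE) with all libraries, and 0.0097 ± 0.17 without the 2.

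Among genes of fatty acid synthesis, Acly stood at 39.3, 560.2 and 748 CPM in HFD and 392, 680.1 and 1152 CPM in CD. The 2 lowest libraries were HFD 4 at 39.3 and HFD 8 at 134 CPM, and the other 14 began at 392. Its mean was 483 ± 271 (SD, n = 8) CPM for HFD and 692 ± 251 for CD, with a fold change of -0.52 ± 0.43 (SE), the lowest of the 31, and an adjusted p of 0.691 (edgeR). Without the 2 libraries it was -0.15 ± 0.21. Acaca, the cytosolic acetyl-CoA carboxylase that makes malonyl-CoA, stood at 34.5, 40.8 and 59.9 CPM in HFD and 25.5, 44.1 and 58.2 CPM in CD. It was one of 6 genes in which neither HFD 4, at 34.5 CPM, nor HFD 8, at 44.98 CPM, lay outside the other 14. Here the fold change was -0.03 ± 0.21 (SE), and 0.0075 ± 0.21 without HFD 4 and HFD 8. Acacb stood at 0, 3.58 and 7.87 CPM in HFD and 0, 3.61 and 11.5 CPM in CD, too low to separate the libraries, with a fold change of -0.12 ± 0.65 (SE), and -0.03 ± 0.62 without HFD 4 and HFD 8.

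Fasn, fatty acid synthase, stood at 31.7, 282 and 392 CPM in HFD and 207, 301 and 378 CPM in CD. HFD 4 at 66.7 and HFD 8 at 31.7 CPM were far below the 14 others, which began at 207, and the fold change was -0.29 ± 0.37 (SE), and 0.06 ± 0.16 without them. Acly and Fasn, the steps before and after the carboxylase, were thus low together in these libraries, while Acaca lay inside the range of the others. Me1, the malic enzyme that supplies NADPH for the chain (GRCm38 chromosome 9, 86581371 to 86695953, minus strand), went the other way, at 46.1, 69.7 and 251 CPM in HFD and 35.1, 50.6 and 91.7 CPM in CD. HFD 4 at 251 and HFD 8 at 156 CPM were above the 14 others, which ended at 91.7. The mean was 62.3 ± 13.4 (SD, n = 6) CPM in the other HFD libraries and 56.8 ± 19.4 (SD, n = 8) in CD. The fold change was 0.78 ± 0.34 (SE) with an adjusted p of 0.434 (edgeR), and 0.14 ± 0.21 without the 2 libraries.

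The 5 genes of desaturation and elongation took the same position in the 2 libraries, and in each of them HFD 4 and HFD 8 were both below the other 14. Scd1 and Scd2 put the first double bond into stearoyl-CoA and lie close together on chromosome 19 (GRCm38, 44394455 to 44407879 on the minus strand and 44293674 to 44306864 on the plus strand). As paralogs, they may share reads without a unique alignment, which the counting set apart in a summary row. Scd1 stood at 149, 249 and 345 CPM in HFD and 208, 259 and 359.8 CPM in CD, with HFD 8 at 149 and HFD 4 at 153 CPM lowest. Scd2 stood at 92.8, 696 and 951 CPM in HFD and 575, 760.0 and 969 CPM in CD, with HFD 4 at 92.8 and HFD 8 at 179 CPM lowest. The median of the 14 others was 1.76 times the value in HFD 4 and 1.800 times that in HFD 8 for Scd1, and 8.38 and 4.34 times for Scd2. Elovl6, which lengthens palmitate to stearate, stood at 64.9, 314 and 388 CPM in HFD and 203, 292 and 414 CPM in CD.

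Fads1 and Fads2, the desaturases that lead to arachidonic and docosahexaenoic acid, are also neighbours on chromosome 19 (GRCm38, 10182888 to 10196877 on the plus strand and 10062765 to 10101746 on the minus strand). Fads1 stood at 49.2, 294 and 435 CPM in HFD and 272, 348 and 465 CPM in CD, with HFD 4 at 163 and HFD 8 at 49.2 CPM. This gave a fold change of -0.44 ± 0.31 (SE) with an adjusted p of 0.624 (edgeR), and -0.16 ± 0.16 without them. Fads2 stood at 38.00, 179 and 247 CPM in HFD and 135, 179.7 and 271 CPM in CD, with HFD 4 at 45.8 and HFD 8 at 38.00 CPM. That gave a fold change of -0.32 ± 0.33 (SE), and -0.0022 ± 0.18 without them. The fold changes of Scd1, Scd2 and Elovl6 were -0.14 ± 0.20 (SE), -0.30 ± 0.36 (SE) and -0.15 ± 0.30 (SE) with all libraries and turned to 0.05 ± 0.15, 0.05 ± 0.16 and 0.14 ± 0.16 without HFD 4 and HFD 8. Stard4, which carries sterol between membranes, stood at 12.5, 17.1 and 35.5 CPM in HFD and 5.999, 15.3 and 25.2 CPM in CD. HFD 4 and HFD 8 lay inside the other 14, and its highest library was HFD 7. The diet fold change was 0.32 ± 0.30 (SE), and 0.42 ± 0.30 without HFD 4 and HFD 8.

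**Figure D3:**
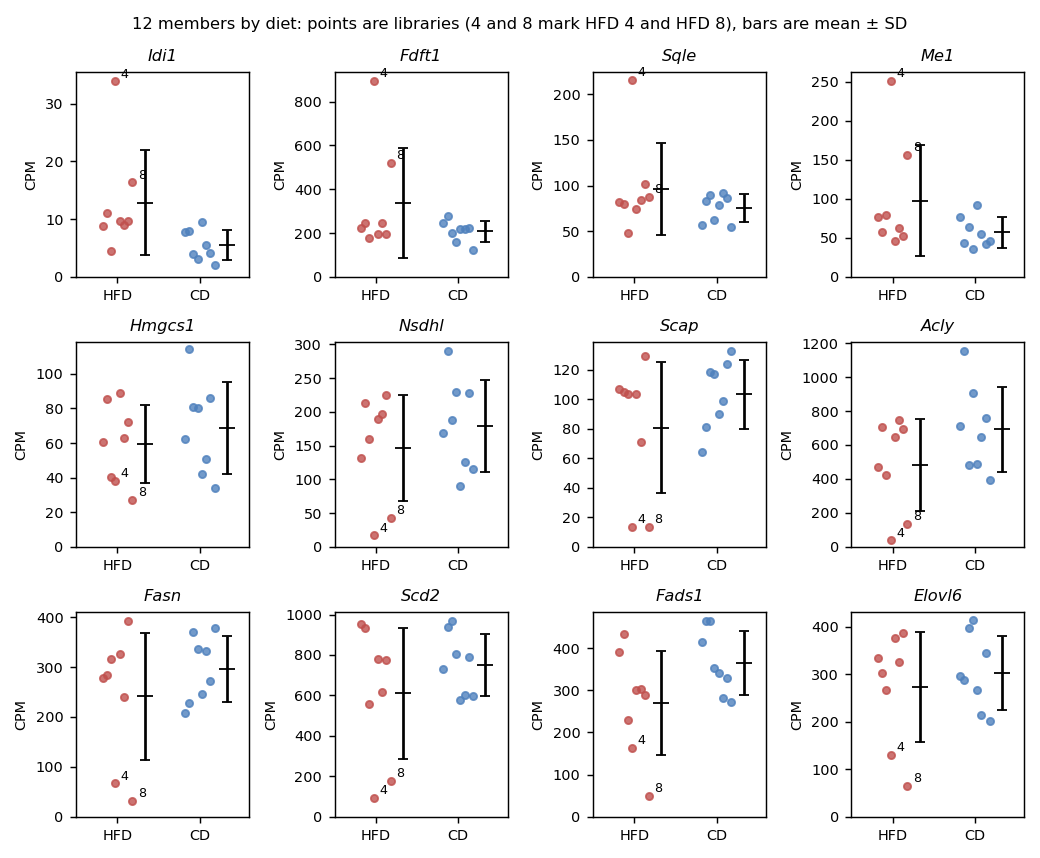
CPM of 12 of the 31 genes by diet, from 0 upward, with 1 point per library, HFD 4 and HFD 8 marked by number, and bars for the mean ± SD of 8 libraries. The marked libraries are the highest for Idi1, Fdft1 and Me1 and the lowest for Nsdhl, Scap, Acly, Fasn, Scd2, Fads1 and Elovl6, and the remaining HFD points overlap the CD points.

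The position of HFD 4 and HFD 8 was the main pattern of these genes over the libraries. In 15 of the 31 (48.4%) both lay below all of the other 14, where 22.6% of the 13149 genes did so. In 3 of the 31 (9.68%; Idi1, Fdft1 and Me1) both lay above, where 21.8% of all genes did. The 15 were Mvd and Fdps of the mevalonate pathway, Msmo1, Nsdhl and Sc5d of the sterol steps, the regulators Insig1, Srebf2 and Scap, Acly and Fasn, and all 5 genes of desaturation and elongation. The 6 genes with neither library outside were Pmvk, Lss, Hsd17b7, Acaca, Acacb and Stard4. The 2 libraries did not always go together: Sqle and Cyp51 were above the others and Mvk and Dhcr7 below them in HFD 4 only, and Hmgcs1, Srebf1 and Ebp were below them in HFD 8 only. These are the same 2 libraries with the higher late spermatid sum, the lower epididymal sum and the lowest shares of reads in genes. The part of each in these positions was not tested.

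**Figure D4:**
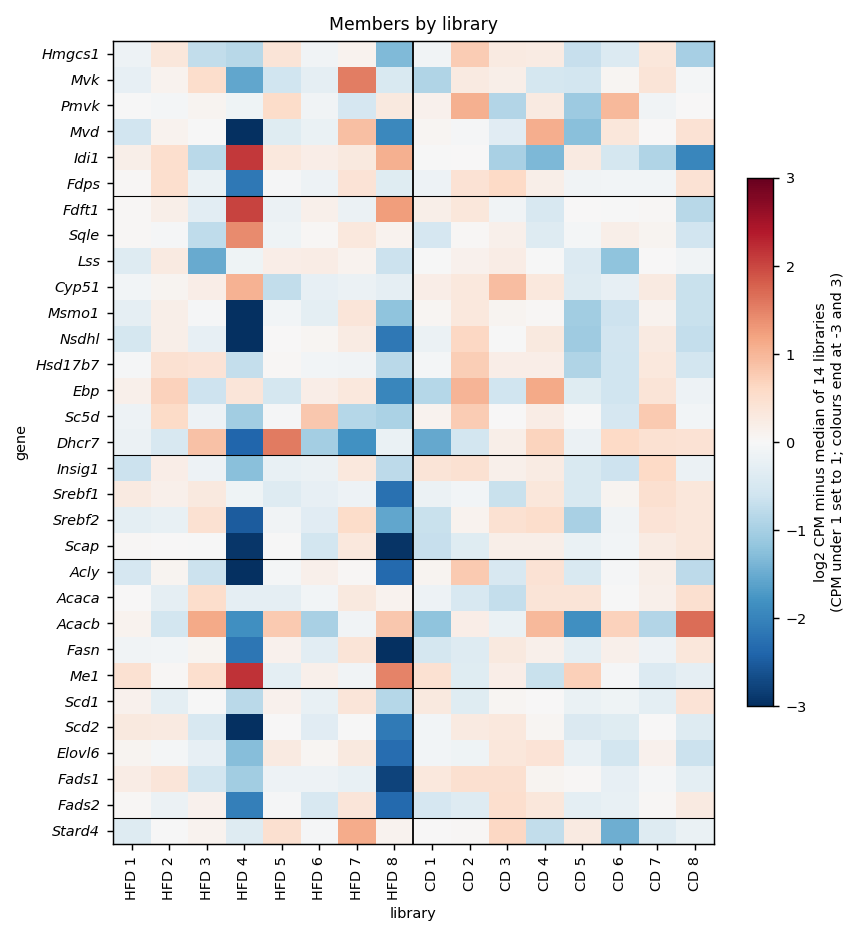
Log2 CPM of each gene in each library minus its median over the 14 libraries other than HFD 4 and HFD 8 (blue below, red above, colours ending at 3 either way, CPM under 1 set to 1). The columns of HFD 4 and HFD 8 are blue in most rows and red for Idi1, Fdft1 and Me1, with Sqle and Cyp51 red in HFD 4 alone. Paler red marks cells closer to the median, such as Acacb in HFD 8 (1.75 times the median), Ebp in HFD 4 (1.28) and Pmvk in HFD 8 (1.23).

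Across the 14 other libraries, the genes were also set beside the marker sums, with Pearson's r and Spearman's rho on log2 values, two-sided permutation p and adjustment over 62 relations. All values share each library's total, and the sums themselves had r = -0.73 with each other. With the late spermatid sum, r was below 0 for 26 genes and above 0 for 5, and 6 passed by Pearson's r. Nsdhl had r = -0.86 (adjusted permutation p = 0.0029) and rho = -0.89 (adjusted permutation p = 0.0043). The other 5 genes were Ebp (r = -0.78), Msmo1 (r = -0.77), Hmgcs1 (r = -0.73), Hsd17b7 (r = -0.71) and Insig1 (r = -0.68), with adjusted permutation p of 0.011 to 0.048. Their rho of -0.68 to -0.75 missed the threshold, with adjusted permutation p of 0.059 to 0.068. This depended on the scaling. With TMM-scaled CPM for both the genes and the sums, 7 genes passed by r and 7 by rho, 5 of them by both. That scale is the one used for single genes elsewhere. Without the 2 libraries farthest from the median sum, CD 2 and CD 5, r was -0.79 for Nsdhl, -0.76 for Ebp, -0.68 for Msmo1, -0.61 for Hmgcs1, -0.61 for Insig1 and -0.52 for Hsd17b7, whose permutation p was then 0.0823.

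With the epididymal sum, r was above 0 for 24 genes and below 0 for 7, and 5 passed. Msmo1 had r = 0.89 (adjusted permutation p = 0.0029) and rho = 0.81 (adjusted permutation p = 0.024), and it alone passed by rho on this scale. With TMM-scaled CPM, 6 genes passed by r and 6 by rho, 3 of them by both. Nsdhl (r = 0.88), Hsd17b7 (r = 0.88), Hmgcs1 (r = 0.81) and Scd2 (r = 0.70) passed by r, with rho of 0.64 to 0.74. Without CD 6 and CD 8, the farthest from the median sum, r was 0.84 for Msmo1, 0.85 for Nsdhl, 0.81 for Hsd17b7, 0.73 for Hmgcs1 and 0.57 for Scd2. CD 5, CD 6 and CD 8 had epididymal sums of 34118, 31986 and 32062 CPM, apart from the other 11, which began at 51856. Within those 11 libraries, a choice made after seeing these values, 0 relations passed with either sum, by r or by rho. There r with the epididymal sum was 0.54 for Msmo1, 0.62 for Nsdhl, 0.55 for Hsd17b7, 0.60 for Hmgcs1 and 0.44 for Scd2, with adjusted permutation p of 0.326 to 0.39. With the late spermatid sum it was -0.75 for Nsdhl and -0.83 for Ebp, both with an adjusted permutation p of 0.138, -0.55 for Insig1, -0.51 for Msmo1, -0.50 for Hmgcs1 and -0.35 for Hsd17b7. For Ebp with the late spermatid sum, r was no nearer 0 over the 11 libraries than over the 14, although it no longer passed, while for the other relations named it lay nearer 0, least so for Nsdhl and Insig1 with the late spermatid sum. Nsdhl, Msmo1, Hmgcs1 and Hsd17b7 passed with both sums over the 14, below 0 with one and above 0 with the other. Relations of all other genes were not computed, so these counts have no background share beside them. Whether they are particular to these genes was not tested.

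**Figure D5:**
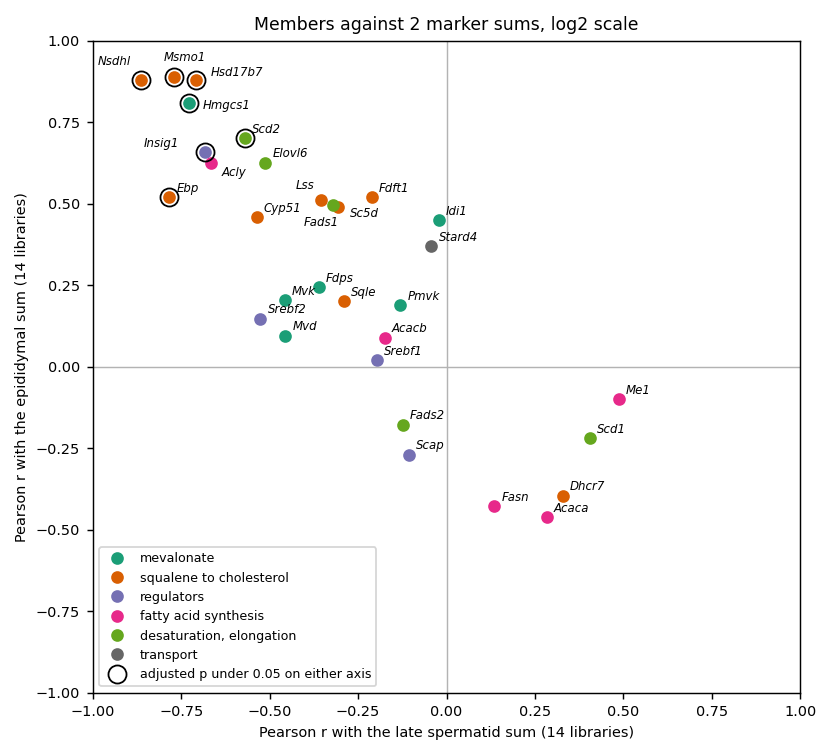
Pearson r of each gene with the late spermatid sum (horizontal axis) and with the epididymal sum (vertical axis), over the 14 libraries other than HFD 4 and HFD 8, coloured by role. Circled genes had an adjusted p under 0.05 with either sum, and they lie at the upper left, where Nsdhl, Msmo1 and Hsd17b7 are farthest from the centre.

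Other genes of sterol metabolism, 30 in a list without the 31 above, gave 26 tested genes. Of these, 0 passed the adjusted threshold, 10 stood higher and 16 lower in HFD, and the median log2 fold change was -0.20 (0.0039 without HFD 4 and HFD 8, with 13 higher and 13 lower). At an unadjusted p under 0.05 (edgeR), Rnf139 stood higher and Mylip lower, where 10.2% of all genes stood higher and 1.10% lower. The 4 with the highest CPM were Npc2, a lysosomal sterol carrier, the ubiquitin ligase Rnf139, Erlin2, a protein of the endoplasmic reticulum membrane, and Acat2, which makes acetoacetyl-CoA for Hmgcs1. Npc2 stood at 3117 ± 1516 (SD, n = 8) CPM for HFD and 3631 ± 556 for CD, and at 3896 ± 531 (SD, n = 6) CPM in the HFD libraries other than HFD 4 and HFD 8. Its fold change was -0.22 ± 0.34, and 0.11 ± 0.13 without them. Rnf139 stood at 1059 and 1117 CPM in HFD 4 and HFD 8 against 64.7 to 208 in the other 14, and its log2 fold change of 1.44 ± 0.55 (SE) was -0.0040 without them. Erlin2 and Acat2 had fold changes of -0.23 ± 0.29 and -0.32 ± 0.39, and 0.03 and 0.05 without them. Mylip, a ligase that marks the LDL receptor for breakdown, stood at 27.7 ± 3.72 CPM under HFD and 36.2 ± 7.203 under CD (SD, n = 8 each). Its fold change was nearly the same with and without HFD 4 and HFD 8, at -0.38 ± 0.18 and -0.34, with an adjusted p of 0.437 (edgeR).

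Other genes of fatty acid metabolism, 28 in a list of which 23 could be tested, had 0 past the adjusted threshold, 4 higher and 19 lower in HFD, and a median of -0.13. Without HFD 4 and HFD 8 there were 15 higher and 8 lower, with a median of 0.06. The 4 with the highest CPM were Tecr, the last enzyme of each elongation round, the acyl-CoA synthetase Acsl4, G6pdx, which supplies NADPH, and Mid1ip1, a partner of acetyl-CoA carboxylase. Tecr stood at 585 ± 317 (SD, n = 8) CPM for HFD and 757 ± 202 for CD, with HFD 4 at 118 and HFD 8 at 63.5 CPM and the other 14 from 550.0. The fold changes of Tecr, Acsl4, G6pdx and Mid1ip1 were -0.37, -0.25, -0.25 and -0.10, with SEs of 0.24 to 0.41. Without HFD 4 and HFD 8 they were -0.0046 ± 0.16, 0.06 ± 0.17, 0.06 ± 0.18 and 0.10 ± 0.18. At an unadjusted p under 0.05, Lpin1, a phosphatidate phosphatase and SREBP target, stood higher, at 0.97 ± 0.37 and an adjusted p of 0.434 (edgeR), and at 0.12 without the 2 libraries. By that unadjusted measure, 10.2% of all genes stood higher and 1.10% lower. Both lists thus changed their balance of higher and lower genes with HFD 4 and HFD 8, as the 31 did. Of all tested genes, 49.6% stood higher in HFD with these libraries and 49.2% without them.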

How the data were processed

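The authors deposited unnormalised counts of reads by gene symbol, 1 column for each of 16 libraries. Tools named in the submitters' processing notes, with no role, are DESeq2 1.0.19, HTSeq 1.0.0 and STAR, and the build is mm10. Which annotation and strand setting served the counting is not given in the sources used here. The 5 summary rows entered neither library sizes nor tests. They include reads assigned to no feature, 58.0% to 76.1% of a library's column and highest in HFD 4 and HFD 8. They also include reads without a unique alignment, 15.8% to 30.7%. Libraries were made from 2 ng of RNA and 250 ng of amplified cDNA with no molecular identifiers named, so counts are not independent molecules.

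HFD was set against CD in edgeR 4.0.16 (R 4.3.3), by a robust quasi-likelihood F-test with TMM factors and its default filter, diet as the sole term, two-sided, with Benjamini-Hochberg adjustment over 13149 genes and a threshold of 0.05. CPM of single genes use TMM-scaled library sizes. CPM of marker sums, and of genes set against them (plus 0.5 before log2), use gene totals. Relations to marker sums used Pearson's r and Spearman's rho with 100000 permutations, adjusted over 62 relations. They were computed in NumPy 2.4.6, with ranks from SciPy 1.17.1. Alternatives were RLE factors, DESeq2 1.42.0, limma-voom (limma 3.58.1) with quality weights, no filter, a replicate block, leaving out HFD 4 and HFD 8, and leaving out each library. The fitting step was tested on simulated data. Pairs of libraries within a diet differed over genes by a chi-square of at least 12.7 per degree of freedom, so none was counted as a second copy. Exon lengths and positions come from GENCODE M21 on GRCm38, and promoters from RefSeq on GRCm38.p6.

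The 31 genes and all lists were chosen with earlier results of these data known. By rule, every one of the 31 was described, and of the other pathway genes the 4 with the highest mean CPM in each list were named. Genes at an unadjusted p under 0.05, Apoh, Rnf26, the 12 genes plotted by diet and genes overlapping an exon of the 31 were picked after their values were seen.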

Additional observations from a re-analysis of the deposited data

Results flagged for a closer look

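Each of the 31 genes was examined in both diets for 1 library standing apart from the other 7 of its diet, by the gap to its nearest neighbour divided by the whole range (Dixon's criterion, 0.526 for 8 libraries). Of 62 groups examined, 6 passed, all of them in HFD. The criterion passes about 1 in 20 groups of independent normal values. Genes of the same libraries are not independent, and the shape of their CPM was not tested. A pair of libraries that stand apart together can also hide each other. Idi1 stood at 33.9 CPM in HFD 4 with the next library at 16.4 CPM, Sqle at 216 CPM in HFD 4 with the next at 101.6 CPM, and Cyp51 at 160.1 CPM in HFD 4 with the next at 88.6 CPM. Srebf1 stood at 14.6 CPM in HFD 8 with the next library at 52.7 CPM. Mvk stood at 15.2 CPM in HFD 7 with the next at 7.53 CPM, and Stard4 at 35.5 CPM in HFD 7 with the next at 22.8 CPM.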

How the results depend on the processing

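No gene of the 31 passed the adjusted threshold under any alternative, and over all genes only DESeq2 called any (1). Without HFD 4 and HFD 8, 12 fold changes turned from below to above 0: Hmgcs1 0.0047, Lss 0.058, Msmo1 0.15, Nsdhl 0.064, Hsd17b7 0.13, Dhcr7 0.11, Scap 0.0097, Acaca 0.0075, Fasn 0.059, Scd1 0.046, Scd2 0.047 and Elovl6 0.14. With limma-voom and quality weights Lss was 0.014, Hsd17b7 0.075, Ebp 0.14, Acacb 0.22 and Elovl6 0.054, and Lss was 0.0065 with RLE factors and 0.0060 with DESeq2. Leaving out each library in turn turned the sign of 11 genes, with ranges of -0.12 to 0.053 for Acaca, -0.31 to 0.28 for Acacb, -0.30 to 0.042 for Cyp51, -0.58 to 0.056 for Dhcr7, -0.31 to 0.055 for Ebp, -0.24 to 0.0021 for Elovl6, -0.15 to 0.085 for Hsd17b7, -0.13 to 0.11 for Lss, -0.29 to 0.034 for Msmo1, -0.15 to 0.36 for Mvk and -0.28 to 0.00093 for Pmvk. The sign of 14 genes held under every alternative. Beyond fewer libraries, the cause of these turns was not tested.

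The diets carry the same library numbers, 1 to 8, which nothing in the labels ties to shared litters or days. Deviations of same-numbered libraries correlated at -0.37 to 0.59, and 2 of 8 libraries correlated best with their own number. With the replicate block, 0 genes were called, the median of the 31 was -0.24, and Acacb turned to 0.056.

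Relations past the threshold with the late spermatid sum numbered 6, and 20 over all 16 libraries, 0 without CD 5, CD 6 and CD 8, and 3 to 7 without 1 library (3 without CD 2, CD 5 or CD 8). By rho they numbered 1, and 7 with TMM-scaled CPM. With the epididymal sum they numbered 5 by r and 1 by rho (6 and 6 with TMM-scaled CPM), and 21 over all 16 libraries and 0 without CD 5, CD 6 and CD 8. Leaving out 1 of the 14 libraries kept Msmo1, Nsdhl and Ebp with the first sum, and Hmgcs1, Msmo1, Nsdhl and Hsd17b7 with the second, in all 14 fits. Some values rest on few counts: HFD 4 had 0 counts of Mvd, Dhcr7 and Acacb, 2 of Msmo1 and 3 of Mvk. It was also the library with the fewest counts in genes (1882555). Msmo1 was not a low gene elsewhere, with a median of 54.8 CPM in the other 14 libraries, against 7.95 CPM for Mvd. The part of depth in these counts was not tested.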
